A study of Mus musculus with 12 samples.

Results

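The HOXB cluster is a run of homeobox genes on mouse chromosome 11. It was followed here through 10 of its genes, Hoxb1 to Hoxb9 and Hoxb13, in bone marrow cells carrying CALM-AF10 leukaemia fusions. A gene was represented by the probe set annotated to its symbol alone, the brightest one where there were several. By this rule 9 of the 10 genes were measured, each by 1 probe set, out of 19938 genes measured in the same way on the array. Hoxb8 had no probe set of its own, and a probe set annotated to both Hoxb8 and Hoxb7 is given apart.

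The arrays held RNA from marrow of adult mice (strain label C57/BL6/C3H) that had received 5-fluorouracil, a drug that kills cycling cells and so enriches for stem and progenitor cells. All cells, controls included, were stimulated in culture for 48 h, overlaid on irradiated (40 Gy) virus-producing GFP+E86 cells with cytokines and protamine sulfate (5 µg/ml), sorted for GFP, and taken 96 h after transduction. Every group therefore carried a GFP retrovirus, and the groups differed in the insert, with 3 arrays each. The minimal fusion, CALM(400-648)+AF10 (677-758), joins a fragment of CALM, an endocytic adaptor protein, to a fragment of AF10. CALM-AF10 is the longer fusion, and CALM-AF10 ΔOM-LZ is that fusion without OM-LZ, the octapeptide motif and leucine zipper of AF10 through which it binds the histone methyltransferase DOT1L. MIG, the empty vector, was the control. The inserts were driven by the retrovirus in a mixed, sorted population, and the labels call the replicates biological without saying that they came from separate mice. P-values therefore measure the spread between these samples, which may in part be technical.

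HOX proteins are transcription factors that bind DNA together with PBX and MEIS partners and give cells their position along the body axis. In blood, genes from the Hoxb1 end of the cluster are known from primitive progenitors and are switched off as cells mature. Forced Hoxb4 expands mouse blood stem cells, and leukaemias with CALM-AF10 are known for high HOXA genes, the paralogues of the HOXB genes on another chromosome.

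The whole array set was even: array medians ran from 6.58 to 6.69 on the log2 scale, and pairs of arrays correlated with r between 0.97 and 0.99. Markers of the labelled tissue were present, with 16 of 16 measured stem and progenitor genes and 5 of 5 neutrophil primary granule genes above a receptor background. That background was the 95th percentile, 6.02, of 1205 probe sets for olfactory and vomeronasal receptors, genes that marrow is not known to use. Of B cell genes 2 of 10 and of T and NK cell genes 1 of 10 exceeded it. For collagen, fibronectin and other fibroblast genes, a check for the virus-producing line, the mean log2 deviation per array ran from −0.14 to 0.04 in minimal fusion arrays, −0.07 to 0.01 in CALM-AF10, 0.01 to 0.04 in ΔOM-LZ and −0.06 to 0.27 in MIG. Of 16 such genes 11 lay above the receptor background. The deviation compares arrays with each other, and whether producer cells remained after sorting was not tested.

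Ordered by the start of their RefSeq records, the genes run Hoxb13, Hoxb9, Hoxb8, Hoxb7, Hoxb6, Hoxb5, Hoxb3, Hoxb4, Hoxb2 and Hoxb1. The places of Hoxb3 and Hoxb4 rest on record starts alone, and overlap of the records was not examined. The cluster also holds a pair of microRNA genes. Mir196a-1 lies between Hoxb13 and Hoxb9, and Mir10a lies before the start of Hoxb4 on the same strand. Their mature forms are shown because they are made from inside the cluster, miR-196 being known to target HOX transcripts. RefSeq sequences on GRCm38.p6, plus strand, are given with the seed (bases 2 to 8) in capitals. The form mmu-miR-10a-5p lies at chr11:96317186-96317208 and mmu-miR-196a-5p at chr11:96265187-96265208.
mmu-miR-10a-5p: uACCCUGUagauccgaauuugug
mmu-miR-196a-5p: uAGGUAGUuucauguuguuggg
The seeds differ. A whole-transcript array is not designed for mature microRNAs, and both probe sets lay below the receptor background. Mir10a averaged 3.59 in minimal fusion arrays and 3.59 in MIG arrays on the log2 scale, and Mir196a-1 averaged 4.15 in minimal fusion arrays and 4.16 in MIG arrays.

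The RefSeq promoter table held 3 of the 10 genes, Hoxb1, Hoxb4 and Hoxb8. The 250 bases before the start of Hoxb1 and Hoxb4 are shown, since both genes exceeded the receptor background and they differ in a motif tied to HOX proteins. The motif is TGATNNAT, the shared site of PBX and HOX proteins, searched on both strands and marked in capitals. Hoxb1 (chr11:96365508-96365757, plus strand, GRCm38.p6) held 1 match, between 162 and 155 bases before the start, and Hoxb4 (chr11:96318017-96318266, plus strand) held 0.
Hoxb1: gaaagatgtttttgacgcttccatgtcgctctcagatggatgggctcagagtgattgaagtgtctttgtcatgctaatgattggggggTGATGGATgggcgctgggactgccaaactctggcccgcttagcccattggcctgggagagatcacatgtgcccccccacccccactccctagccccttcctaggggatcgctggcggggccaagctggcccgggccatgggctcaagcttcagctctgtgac
Hoxb4: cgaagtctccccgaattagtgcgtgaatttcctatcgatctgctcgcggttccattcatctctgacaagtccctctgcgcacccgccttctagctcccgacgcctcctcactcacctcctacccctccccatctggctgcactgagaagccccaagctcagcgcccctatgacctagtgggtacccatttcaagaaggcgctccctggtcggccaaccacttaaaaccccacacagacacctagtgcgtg
Hoxb8 also held 1 match. Of 32851 promoter windows of this length, 7.68% held at least 1. For CCAAT, the NF-Y site, Hoxb1 held 2 matches, Hoxb8 held 1 and Hoxb4 held 0, against 33.8% of windows with at least 1, and no CCAAT match overlapped TGATNNAT. The E box CACGTG, bound by USF factors, was in 0 of the 3, against 6.02% of windows.

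On the arrays the HOXB genes fell on either side of the receptor background. Averaged over 12 arrays, 5 probe sets lay above it: Hoxb1 at 7.24, Hoxb2 at 7.29, Hoxb3 at 7.85, Hoxb4 at 7.51 and Hoxb9 at 6.56 on the log2 scale. Hoxb5 (5.74), Hoxb6 (5.24), Hoxb7 (5.96) and Hoxb13 (5.33) lay below it. Of the receptor probe sets, 0.166% were as bright as Hoxb3 or brighter, 0.249% for Hoxb4 and 0.498% for each of Hoxb1 and Hoxb2. The corresponding shares were 1.74% for Hoxb9, 5.98% for Hoxb7, 9.54% for Hoxb5, 17.2% for Hoxb13 and 19.8% for Hoxb6. The brightness of a probe set depends on its probes, so these values place each gene against a background and do not rank the genes. The genes above it other than Hoxb9 form the Hoxb1 end of the cluster. Whether the signal of each probe set comes from its own gene was not tested.

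**Figure D1:**
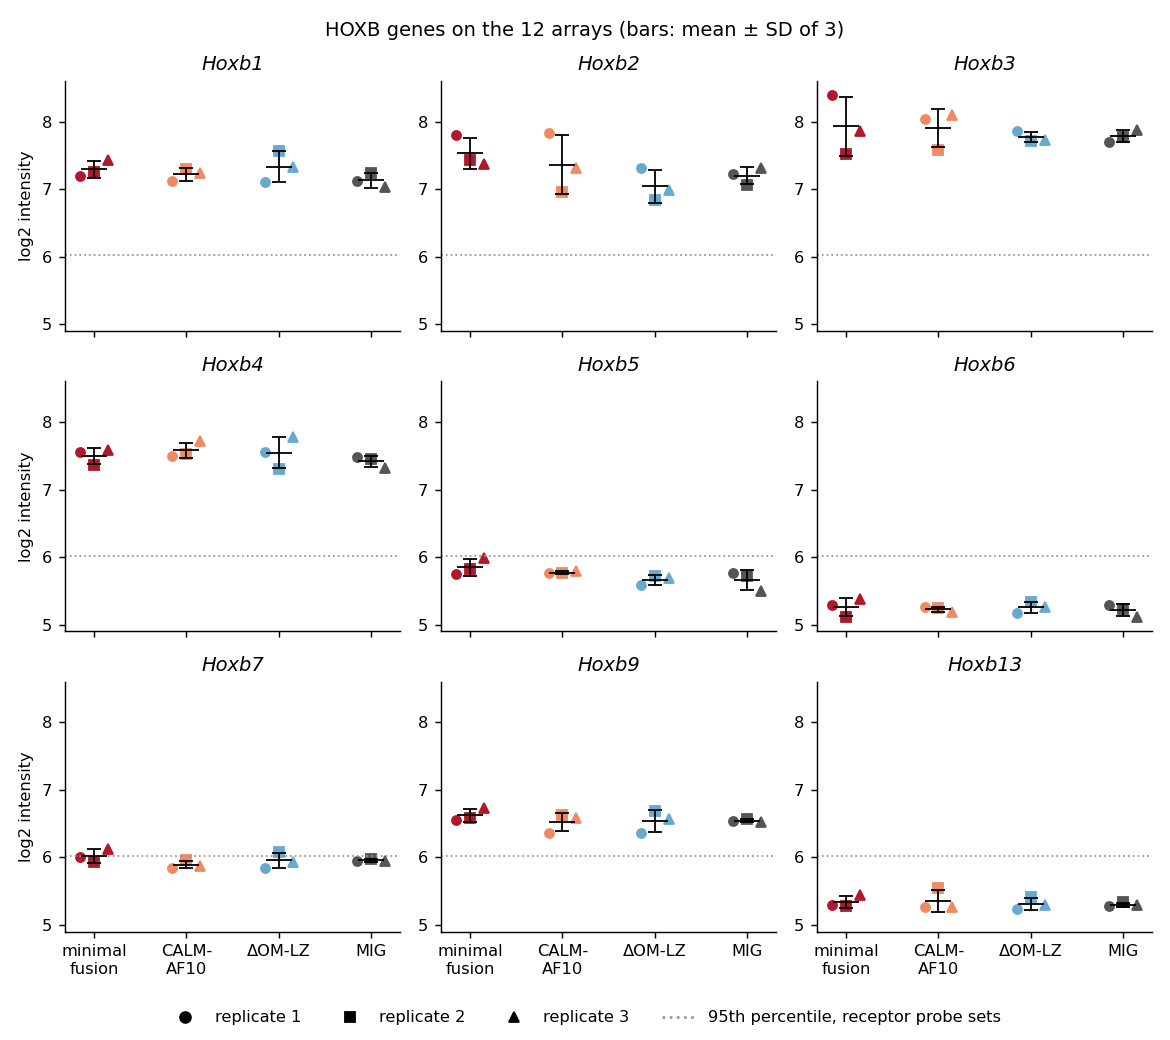
Log2 intensity (vertical axis) of 9 HOXB genes by construct (horizontal axis), 1 point per array with symbols for replicate number, bars for mean ± SD of 3 arrays and a dotted line at the receptor background of 6.02. The constructs overlap in most panels, and Hoxb2 and Hoxb3 spread most among arrays of 1 construct.

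No HOXB gene passed the test in any comparison of constructs. The test was limma's moderated test on all 12 arrays with Benjamini-Hochberg adjustment over 23410 probe sets and a threshold of 0.05. Against MIG, 0 of 9 passed in the minimal fusion, where 0.0342% of all probe sets did, and 0 of 9 in CALM-AF10 and in ΔOM-LZ, where 0% did in each. Between fusions, 0 of 9 passed for CALM-AF10 over ΔOM-LZ (0% of all), for the minimal fusion over ΔOM-LZ (0.0171%) and for the minimal fusion over CALM-AF10 (0.00427%). limma's F test over all constructs at once passed for 0 of 9, with an adjusted p of 1 for each, and for 0.00854% of all. Few genes of any kind passed, so each gene is given below with the interval of its difference.

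At an unadjusted p under 0.05, 0 of 9 genes passed for the minimal fusion against MIG, where 7.61% of all probe sets did. The counts were 0 for CALM-AF10 against MIG (5.26% of all), 0 for ΔOM-LZ against MIG (3.96%), 0 for CALM-AF10 against ΔOM-LZ (2.26%) and 0 for the minimal fusion against CALM-AF10 (1.8%). In the minimal fusion against ΔOM-LZ 1 gene passed at that level, Hoxb2, against 4.1% of all.

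Group values did not overlap for 1 gene between the minimal fusion and MIG, Hoxb2 (12.1% of all probe sets), 1 between CALM-AF10 and MIG, Hoxb4 (9.31%), and 0 between ΔOM-LZ and MIG (8.04%). They did not overlap for 1 between CALM-AF10 and ΔOM-LZ, Hoxb5 (6.76%), 2 between the minimal fusion and ΔOM-LZ, Hoxb2 and Hoxb5 (7.78%), and 0 between the minimal fusion and CALM-AF10 (5.38%). These counts of 0 to 2 of 9 genes are set beside shares of 5.38% to 12.1%, and whether the HOXB genes exceed them was not tested.

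Hoxb1, which gives the fourth segment of the hindbrain its identity, did not separate the groups. It had 7.20, 7.26 and 7.44 in minimal fusion arrays, 7.12, 7.30 and 7.24 in CALM-AF10, 7.11, 7.56 and 7.32 in ΔOM-LZ, and 7.12, 7.24 and 7.03 in MIG. The highest array was ΔOM-LZ replicate 2 and the lowest MIG replicate 3, and the 4 groups overlapped. The order of the means, ΔOM-LZ (7.33), minimal fusion (7.30), CALM-AF10 (7.22) and MIG (7.13), was held by gaps smaller than the spread between replicates. Hoxb1 differed from MIG by 0.17 in the minimal fusion (95% interval −0.11 to 0.44; fold 0.93 to 1.36) and by 0.20 in ΔOM-LZ (−0.07 to 0.48), with limma adjusted p = 0.805 and 0.999.

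Hoxb2, a hindbrain patterning gene that is also transcribed in blood progenitors, had the widest range of the 9 genes over the arrays. It had 7.80, 7.43 and 7.37 in minimal fusion arrays, 7.83, 6.95 and 7.31 in CALM-AF10, 7.31, 6.83 and 6.99 in ΔOM-LZ, and 7.23, 7.07 and 7.31 in MIG. All 3 minimal fusion arrays lay above all MIG and all ΔOM-LZ arrays, while the CALM-AF10 arrays spanned nearly the whole range. The means ran from the minimal fusion (7.53 ± 0.23, SD, n = 3) through CALM-AF10 (7.36 ± 0.44) and MIG (7.20 ± 0.12) to ΔOM-LZ (7.04 ± 0.24), each neighbouring pair differing by less than the larger SD of the pair. Over MIG, Hoxb2 in the minimal fusion stood 0.33 higher (SE 0.21, 95% interval −0.13 to 0.79, limma adjusted p = 0.762), a fold of 1.26 (0.91 to 1.73). Without minimal fusion replicate 1 it stood 0.20 higher (adjusted p = 0.769).

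Over ΔOM-LZ, Hoxb2 in the minimal fusion stood 0.49 higher (SE 0.21, 95% interval 0.02 to 0.95, unadjusted p = 0.0408, limma adjusted p = 0.999). Without minimal fusion replicate 1 that difference was 0.36 (adjusted p = 0.984). Against ΔOM-LZ, Hoxb2 in CALM-AF10 stood 0.32 higher (95% interval −0.14 to 0.78, adjusted p = 1), and it was higher in each of the 3 same-numbered pairs of arrays. The difference was 0.09 without CALM-AF10 replicate 1 and 0.53 without CALM-AF10 replicate 2. A paired limma fit of those 6 arrays, which pair by the check described with the processing, gave Hoxb2 an unadjusted p of 0.0189 and an adjusted p of 0.28. That fit called 1 probe set of 23410, against 0 without pairing, and 0 of 9 HOXB genes.

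Hoxb3, another gene of primitive blood progenitors, had 8.40, 7.53 and 7.87 in minimal fusion arrays, 8.04, 7.58 and 8.10 in CALM-AF10, 7.86, 7.72 and 7.73 in ΔOM-LZ, and 7.70, 7.78 and 7.88 in MIG. Minimal fusion replicate 1 was the highest array and minimal fusion replicate 2 the lowest, so the other groups lay within the range of that construct. Over MIG, Hoxb3 differed by 0.14 in the minimal fusion (95% interval −0.30 to 0.59, limma adjusted p = 0.901) and by 0.12 in CALM-AF10 (−0.32 to 0.56). Without minimal fusion replicate 1 the difference over MIG was −0.09, and without minimal fusion replicate 2 it was 0.35. The residual SD of Hoxb3, 0.27, exceeded that of 77.3% of probe sets, and that of Hoxb2, 0.28, exceeded 79.8%, where the median probe set had 0.18.

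Hoxb4, the stem cell expanding gene, had 7.55, 7.36 and 7.58 in minimal fusion arrays, 7.50, 7.53 and 7.71 in CALM-AF10, 7.55, 7.31 and 7.78 in ΔOM-LZ, and 7.48, 7.45 and 7.32 in MIG. The CALM-AF10 arrays all lay above the MIG arrays, the nearest arrays almost touching, and the other groups overlapped. Over MIG, Hoxb4 differed by 0.08 in the minimal fusion (95% interval −0.20 to 0.35), 0.16 in CALM-AF10 (−0.11 to 0.44) and 0.13 in ΔOM-LZ (−0.15 to 0.40). As folds the intervals ran from 0.87 to 1.28, 0.92 to 1.35 and 0.90 to 1.32, with limma adjusted p = 0.919, 1 and 0.999.

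Hoxb9, known from patterning of the thoracic skeleton and mammary gland, had 6.55, 6.59 and 6.73 in minimal fusion arrays, 6.37, 6.62 and 6.58 in CALM-AF10, 6.36, 6.68 and 6.56 in ΔOM-LZ, and 6.54, 6.56 and 6.52 in MIG. The MIG arrays lay close together and inside the range of CALM-AF10 and ΔOM-LZ. Over MIG it differed by 0.08 in the minimal fusion (95% interval −0.15 to 0.32, limma adjusted p = 0.897). By replicate number, 49.2% of the variance of Hoxb9 lay between numbers and 14.1% between constructs.

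Among the genes below the receptor background, Hoxb5, a marker of long-term blood stem cells in mice, had 5.75, 5.82 and 5.99 in minimal fusion arrays, 5.76, 5.77 and 5.79 in CALM-AF10, 5.58, 5.73 and 5.69 in ΔOM-LZ, and 5.76, 5.73 and 5.50 in MIG. Every minimal fusion and CALM-AF10 array lay above the ΔOM-LZ arrays, and MIG overlapped with all 3 fusions. Over MIG, Hoxb5 differed by 0.19 in the minimal fusion (95% interval −0.03 to 0.41, limma adjusted p = 0.7), the smallest adjusted p of any HOXB gene in that comparison. It was 0.11 without MIG replicate 3 and 0.12 without minimal fusion replicate 3. Over ΔOM-LZ it differed by 0.19 in the minimal fusion (−0.03 to 0.41) and 0.11 in CALM-AF10 (−0.11 to 0.33).

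Hoxb6 ran from 5.12 to 5.38 over the 12 arrays. Hoxb7 ran from 5.85 to 6.13 and Hoxb13, a gene of the tail bud and prostate, from 5.24 to 5.54. Over MIG in the minimal fusion they differed by 0.05 (95% interval −0.16 to 0.26), 0.07 (−0.13 to 0.27) and 0.04 (−0.18 to 0.26). The probe set shared by Hoxb8, a myeloid oncogene in mice, and Hoxb7 had 5.20, 5.16 and 5.19 in minimal fusion arrays, 5.10, 5.07 and 5.09 in CALM-AF10, 5.15, 5.09 and 5.03 in ΔOM-LZ, and 5.13, 5.33 and 5.22 in MIG. It differed from MIG by −0.04 in the minimal fusion (−0.22 to 0.13) and could not be assigned to either gene.

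In direction, 9 of 9 genes stood above MIG in the minimal fusion, by a median of 0.08, where 51.2% of all probe sets stood higher with a median of 0.00. The counts were 7 of 9 for CALM-AF10 over MIG (median 0.09, 51% of all probe sets higher) and 5 of 9 for ΔOM-LZ over MIG (median 0.00, 52.3% higher), comparisons that share the MIG arrays. For the minimal fusion the count was 8 without its replicate 1 and 7 without its replicate 3. For CALM-AF10 the median was 0.04 without MIG replicate 3 and 0.05 without CALM-AF10 replicate 2. For ΔOM-LZ the count was 3 under quantile normalization and without ΔOM-LZ replicate 2, and 7 without MIG replicate 2 or ΔOM-LZ replicate 1. In the minimal fusion over MIG, the 95% intervals of the 9 genes ran from a fold of 0.81, for Hoxb3, to 1.73, for Hoxb2. The lowest and highest ends were folds of 0.80 and 1.54 in CALM-AF10 over MIG, and 0.65 and 1.39 in ΔOM-LZ over MIG. The direction counts include Hoxb5, Hoxb6, Hoxb7 and Hoxb13, which lie below the receptor background. Several HOXB genes vary together, so they are not independent counts, and the direction was not tested. Among lists mostly below the background, 9 of 9 HOXD, 8 of 10 T and NK cell, 6 of 9 HOXC and 5 of 10 B cell genes stood higher in the minimal fusion over MIG.

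The HOXA probe sets on the same arrays gave larger log2 changes than those of their HOXB paralogues in the minimal fusion. In 4 of 8 pairs, those numbered 5, 6, 7 and 13, the HOXB probe set lay below the receptor background, and a change of the HOXB gene may not be measurable there. The HOXA side was also below it in MIG for Hoxa2 (mean 5.44), Hoxa3 (5.50) and Hoxa13 (5.23), so their changes start within the background range. For 8 pairs that share a paralogue number, the change in the minimal fusion over MIG was larger for the HOXA gene in 8 of 8. Hoxa9, a factor that keeps myeloid progenitors immature, stood 1.39 higher and Hoxb9 0.08 higher, a difference of 1.31. Hoxa6 stood 1.61 and Hoxb6 0.05 higher, Hoxa5 1.46 and Hoxb5 0.19, Hoxa3 1.21 and Hoxb3 0.14, and Hoxa7 1.15 and Hoxb7 0.07. For these 5 pairs the 95% intervals of the HOXA and HOXB change lay apart. Among the 4 pairs with the HOXB probe set above the background they lay apart in 2, those numbered 3 and 9, and only in the pair numbered 9 was the HOXA gene above it in MIG as well. In the pairs numbered 4 and 13 they overlapped, with Hoxa4 0.43 against Hoxb4 0.08 and Hoxa13 0.25 against Hoxb13 0.04.

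The difference between HOXA and HOXB log2 values, taken array by array, did not overlap between minimal fusion and MIG arrays for 7 of 8 pairs, each with p = 0.1 by a two-sided exact permutation test. That is the smallest p that 3 arrays against 3 allow. In 4 of those 7 pairs the HOXB probe set was below the background. The pair of Hoxa2 and Hoxb2 was the exception (0.46 and 0.33 higher, exact permutation p = 0.6). The HOXA genes were already known to be high in these data when the pairs were set, so the HOXA side of the difference is a description.

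For CALM-AF10 over MIG the HOXA-HOXB difference did not overlap for 4 of 8 pairs, those numbered 3, 6, 7 and 9, and the 95% intervals lay apart for 0 of 8. For ΔOM-LZ over MIG both counts were 0 of 8. For the minimal fusion the counts of non-overlap and of intervals apart were 5 and 5 over ΔOM-LZ, and 3 and 4 over CALM-AF10. Of 10 measured HOXA genes 4 passed for the minimal fusion over MIG (median 1.16, with 0.0342% of all probe sets passing), against 0 of 9 HOXB genes (median 0.08). The HOXA count was 1 with the replicate block over 12 arrays (Hoxa9), 0 in a fit of those groups alone and 0 in their paired fit with the replicate block. With each array left out in turn it ran from 1 to 5, being 1 (Hoxa9) without MIG replicate 3, minimal fusion replicate 2 or minimal fusion replicate 3. All 10 HOXA genes stood higher in the minimal fusion in each of these fits.

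**Figure D2:**
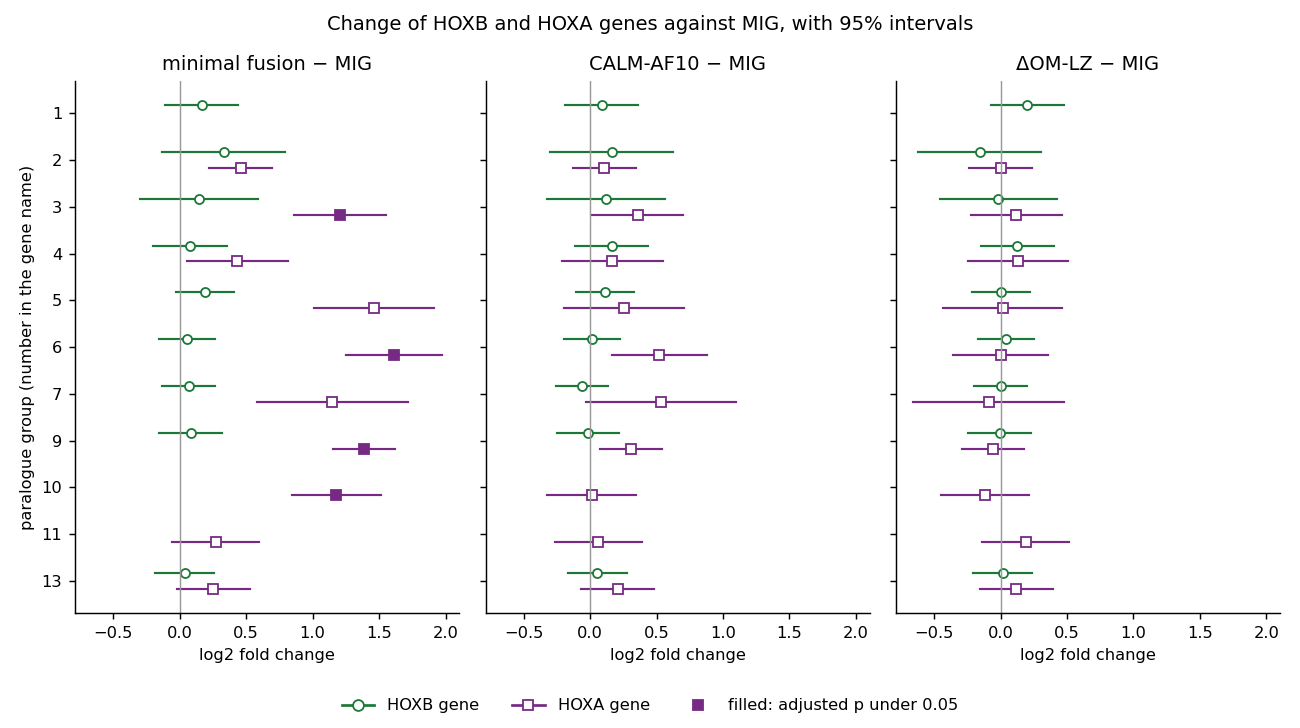
Log2 fold change against MIG (horizontal axis) of HOXB and HOXA genes by paralogue number (vertical axis) for the 3 fusions, with 95% moderated intervals and filled symbols for an adjusted p under 0.05. HOXB changes in the minimal fusion stay between 0.04 and 0.33, while HOXA genes numbered 3, 5, 6, 7 and 9 stand 1.15 to 1.61 higher. The HOXB probe sets numbered 5, 6, 7 and 13 lie below the receptor background, where a change may not be measurable.

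The HOXC and HOXD clusters gave counts like those of the HOXB cluster in the minimal fusion over MIG. Of 9 HOXC genes 0 passed (median 0.06) and 6 stood higher, with Hoxc11 at 0.16 and Hoxc6 at 0.21 on the high side and Hoxc13 at −0.07 on the low side. Of 9 HOXD genes 0 passed (median 0.07) and 9 stood higher, with Hoxd3 at 0.16. Only 1 HOXC and 2 HOXD genes exceeded the receptor background, against 5 of 9 HOXB genes.

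Genes beside the cluster did not pass either. Of 20 measured neighbours and embedded genes, 0 passed for the minimal fusion over MIG, 8 stood higher and the median was −0.07. Ube2z, a ubiquitin-conjugating enzyme gene on the Hoxb13 side, stood at 10.49 in the minimal fusion and 10.76 in MIG, a difference of −0.27 (95% interval −0.48 to −0.05, limma adjusted p = 0.568). Phospho1, a phosphatase gene of bone mineralization 11 genes from the cluster, differed by −0.74 (95% interval −1.29 to −0.19, adjusted p = 0.54). Snf8, of the endosomal sorting machinery, differed by 0.28 and Snx11, a sorting nexin gene, by 0.13. Nearest to the cluster, Ttll6 differed by 0.10 (−0.12 to 0.32) and Skap1 by −0.14 (−0.75 to 0.48), both from probe sets below the receptor background. The lowest change among the 20 was that of Copz2, a subunit gene of the vesicle coat, at −1.04 (−2.17 to 0.08, adjusted p = 0.684), named after its values were seen.

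**Figure D3:**
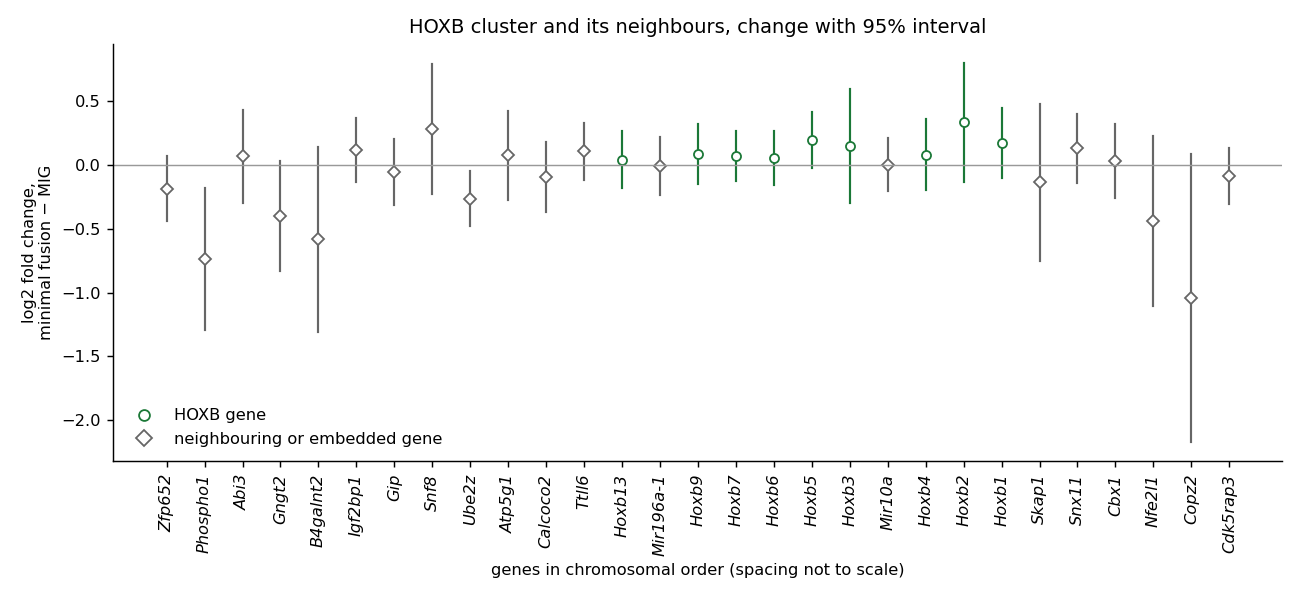
Log2 fold change of the minimal fusion over MIG (vertical axis, bars are 95% intervals) for measured genes from Zfp652 to Cdk5rap3. Genes are ordered by the start of their RefSeq records, on which the places of Hoxb3 and Hoxb4 rest, spacing not to scale. HOXB genes lie between 0.04 and 0.33, and of their neighbours Phospho1 (−0.74) and Ube2z (−0.27) have intervals below 0.

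Genes that act with or upstream of HOX genes gave similar counts. Of 8 measured PBX, MEIS and PREP cofactor genes 0 passed (median −0.11), with Meis1, the HOX partner most tied to leukaemia, 0.31 higher (95% interval −0.58 to 1.21) and Meis2 at −0.34. Of 21 measured HOX regulators 0 passed (median 0.01). Dot1l, the histone methyltransferase gene, differed by 0.25 and Mllt1, a partner of the elongation machinery, by 0.22, against −0.20 for Suz12, a Polycomb subunit gene, and −0.70 for Mllt3, a relative of Mllt1.

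Across the 12 arrays, Hoxb2 was high where stem and progenitor genes were high. A score per array, the mean log2 deviation of 16 stem and progenitor genes from their 12-array means, correlated with Hoxb2 at r = 0.90 and rho = 0.90. The permutation p was 2e-05 for r and 0.00025 for rho, and after Benjamini-Hochberg adjustment over 36 relations (Hoxb2, Hoxb3 and Hoxb4 with 12 lists) 0.00072 and 0.009. Without the 2 arrays farthest from the median score r was 0.83, with construct means removed it was 0.85, and with replicate-number means removed 0.96. The permutations shuffled all 12 arrays freely, although arrays of 1 construct may not be independent, so these p-values can be too small. This relation was picked out after its values were seen. In bulk RNA a larger share of progenitors and more Hoxb2 RNA per progenitor cannot be told apart.

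The stem and progenitor score ran from 0.18 to 0.40 in minimal fusion arrays, −0.21 to 0.30 in CALM-AF10, −0.46 to −0.06 in ΔOM-LZ and −0.24 to 0.21 in MIG. It therefore moved with the arrays in which Hoxb2 was high, and its part in the Hoxb2 differences between constructs was not tested. Of the 16 genes 15 correlated positively with Hoxb2, with a median r of 0.55. Erg, a stem cell transcription factor gene, had r = 0.88, Sox4, a progenitor factor gene, 0.83, and Meis1 0.82, while Gfi1, a factor of granulocyte development, had −0.47.

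Late neutrophil genes ran the other way. Their score correlated with Hoxb2 at r = −0.85 and rho = −0.76, with permutation p = 0.00036 and 0.00556 and adjusted p = 0.00648 and 0.0758 over the same 36 relations. Without the 2 farthest arrays r was −0.75, and with construct means removed −0.79. Of 11 genes 11 correlated negatively, S100a8 (r = −0.88), a calcium-binding protein gene of neutrophils, and Ngp (−0.88), a neutrophil granule gene, most closely, and Retnlg (−0.15) and Mmp9 (−0.16) least. The score ran from −0.82 to −0.30 in minimal fusion arrays, −0.52 to 0.17 in CALM-AF10, 0.20 to 0.81 in ΔOM-LZ and −0.55 to 0.57 in MIG.

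**Figure D4:**
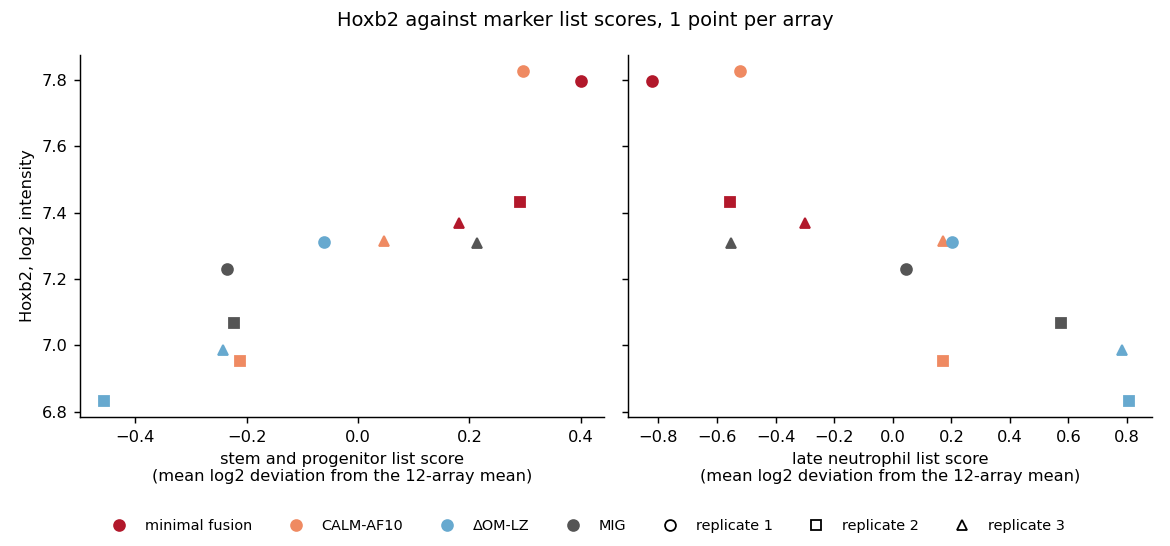
Hoxb2 log2 intensity (vertical axis) against the stem and progenitor score (left) and the late neutrophil score (right), 1 point per array with colours for construct and symbols for replicate number. Hoxb2 is high where the progenitor score is high (r = 0.90) and the late neutrophil score low (r = −0.85), and MIG and CALM-AF10 arrays lie along the same trend as the minimal fusion arrays.

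Hoxb3 and Hoxb4 did not show these relations after adjustment. Hoxb3 correlated with the stem and progenitor score at r = 0.55 (rho = 0.55, permutation p = 0.0608 and 0.0712, adjusted p = 0.285 and 0.233) and Hoxb4 at r = −0.02 (rho = 0.08, permutation p = 0.95 and 0.819, adjusted p = 0.977 and 0.867). Hoxb2 with the mean of the HOXA genes gave r = 0.55 and rho = 0.71 (permutation p = 0.0634 and 0.0121, adjusted p = 0.285 and 0.109). That r was 0.07 with construct means removed and 0.74 with replicate-number means removed. Without the 2 arrays farthest from the median HOXA score it was 0.71.

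The HOXB genes did not vary as 1 block. Over 36 pairs, Hoxb2 and Hoxb3 had r = 0.68 and rho = 0.56 (permutation p = 0.0139 and 0.0613, adjusted p = 0.101 and 0.221). Without the 2 arrays farthest from the Hoxb2 median r was 0.30. Dropping them narrows the range of Hoxb2, which can lower r by itself. Hoxb4 correlated with no other HOXB gene beyond r = 0.30. Hoxb7 with Hoxb9 had r = 0.84 and rho = 0.64 (permutation p = 0.00164 and 0.0307, adjusted p = 0.059 and 0.221), and Hoxb1 with Hoxb9 r = 0.78 and rho = 0.90 (permutation p = 0.00371 and 0.00022, adjusted p = 0.0668 and 0.00792). Hoxb1 with Hoxb7 had r = 0.72, which was 0.29 under quantile normalization and 0.53 under median centring, rescalings chosen after seeing the data. Hoxb7 with Hoxb13 had r = 0.63 and rho = 0.83 (permutation p = 0.029 and 0.00142, adjusted p = 0.117 and 0.0256), though both lie below the receptor background. Hoxb1 and Hoxb2, neighbours at the end of the cluster, had r = −0.52.

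The genes that varied together also moved with the median of the array. Over 9 relations with the array median, r was 0.77 for Hoxb1 (rho = 0.57, permutation p = 0.0033 and 0.0604, adjusted p = 0.0297 and 0.136), 0.71 for Hoxb7 (adjusted p = 0.0336), 0.70 for Hoxb13 (0.0336), 0.64 for Hoxb6 (0.0472) and 0.64 for Hoxb9 (0.0472). The rho values of these 5 genes ran from 0.46 to 0.68, with adjusted p from 0.0858 to 0.239. Without the 2 arrays of farthest median r fell to 0.38 for Hoxb1, 0.31 for Hoxb7, 0.58 for Hoxb13, 0.32 for Hoxb6 and 0.34 for Hoxb9. Dropping those arrays narrows the range of the median, which can lower r by itself. The part of array-wide level in the pairwise correlations was not tested. Hoxb2 (r = −0.36) and Hoxb3 (0.05) showed no such relation.

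**Figure D5:**
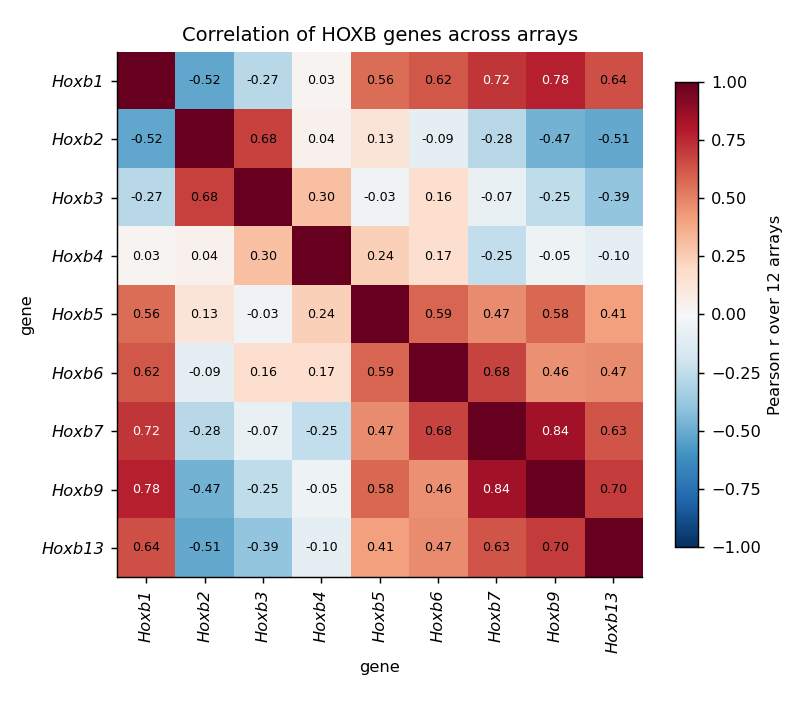
Pearson r over 12 arrays between 9 HOXB genes (both axes, colour scale from −1 to 1). Hoxb1, Hoxb7, Hoxb9 and Hoxb13 correlate positively (0.63 to 0.84), Hoxb2 and Hoxb3 with each other (0.68), and Hoxb2 negatively with Hoxb1 (−0.52) and Hoxb13 (−0.51). Hoxb7 and Hoxb13 lie below the receptor background, and the 0.72 of Hoxb1 with Hoxb7 is 0.29 under quantile normalization.

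Genes whose pattern was most like the HOXB genes were looked up over 12 arrays, as a description with no test. Of those named below, Gng11, Ces4a, Asic2 and Grin2c lay under the receptor background. Those most like Hoxb3 and Hoxb4 were also looked up and are not listed. With the mean of the 5 genes above the receptor background, Sirt3 (r = 0.91), Slc9a8 (0.91), Hdac10 (0.90), Arid1b (0.89) and Ryr1 (0.89) were highest of 19929 genes. Gng11 (−0.90), Apaf1 (−0.90), Tmem87b (−0.90), Flot2 (−0.89) and Chpt1 (−0.88) were lowest. For Hoxb1, Wipf3 (0.98), Mir7-2, Crhr1, Ces4a and Sox21 (0.97 each) were highest, and Zfp87, Zfp84, Lekr1, Rsf1 (−0.97 each) and Ccdc138 (−0.96) lowest. For Hoxb9, Jsrp1, Asic2 (0.96 each), Slc25a47, Nptx2 and Grin2c (0.95 each) were highest, and Jup (−0.94), Smim15 (−0.93), Dexi, Morn4 (−0.92 each) and Wdsub1 (−0.91) lowest. For Hoxb2 alone, looked up after its values were seen, Ctsw (0.95), Spns2 (0.95), Aff3 (0.94), Gm12250 (0.93) and Cux1 (0.91) were highest of 19937 genes, and Lrg1 (−0.96), Mgst1 (−0.93), Tbc1d8 (−0.93), Pstpip2 (−0.92) and Gda (−0.91) lowest.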

How the data were processed

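Gene expression was measured on 12 Affymetrix arrays. Per the submitters' processing notes, the deposited values, log2 intensities, came from Affymetrix Expression Console, with summarization and normalization methods not given in the sources used here. Their range shows the log2 scale, and they were used as deposited. Of 35556 probe sets, 23410 carried a gene symbol in the platform annotation (21789 of them 1 symbol) and were tested.

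Differences were fitted with limma 3.58.1 in R 4.3.3 (lmFit, eBayes), with 1 mean per construct and 8 residual degrees of freedom, two-sided, Benjamini-Hochberg adjusted over the 23410. The script was tested on simulated data. Intervals are 95% moderated intervals. Correlations used 1e+05 permutations. Precision is limited by 3 arrays per construct.

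Members, lists and tests were chosen with earlier results of these data known. The rule for named genes was all HOXB members, same-numbered HOXA genes, the 5 genes most and least like them, and up to 4 members of other lists, by moderated statistic. Marker list members were named after their values were seen.

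With group means subtracted, arrays sharing a replicate number correlated above 0.1 in all 3 pairs only for CALM-AF10 with ΔOM-LZ (r = 0.70 to 0.73). This pairing was seen in the data, and the labels do not state it. Other groups were mixed: r ran from −0.20 to 0.72 for the minimal fusion with CALM-AF10 and −0.07 to 0.62 with ΔOM-LZ. For MIG with the 3 fusions it ran from −0.60 to 0.145. Alternatives were other variance, scaling, filter, probe set, sample and block choices. Figures used matplotlib 3.10.9.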

Additional observations from a re-analysis of the deposited data

How the results depend on the processing

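No HOXB gene was called under any alternative. Of 1104 values of single HOXB genes under the alternatives, 1104 moved by less than the spread between replicates and 54 changed sign. Many of these differences could not move. Variance, filter, probe set and block choices, and leaving out an array of a construct not compared, keep the difference and alter only its p-value. The count of 1104 is therefore no measure of stability. By limma, 20 had an unadjusted p under 0.05 (18 of them Hoxb2), and the smallest adjusted p was 0.28. Keeping probe sets above the median level left 4 HOXB genes. The replicate block over 12 arrays gave Hoxb2 an adjusted p of 0.573 for the minimal fusion over MIG and 0.79 over ΔOM-LZ, and called no HOXB gene.

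Counts of probe sets called over all genes moved more, and the cause was not tested. For the minimal fusion over MIG (8) they were 1 with the replicate block, 20 with all probe sets, 0 in a fit of those groups alone, 0 in a paired fit with the replicate block, and 1 to 9 with each array left out. For the minimal fusion over ΔOM-LZ (4) they were 8 with trend and robust variance, 2 with median centring, 17 with all probe sets, 0 in a fit of those groups alone, 52 in a paired fit with the replicate block, and 1 to 5 with each array left out. For the minimal fusion over CALM-AF10 (1) they were 0 with the replicate block, 3 with all probe sets, 0 in a fit of those groups alone and 0 to 1 with each array left out. For CALM-AF10 over MIG (0) they were 1 with all probe sets and 0 to 1 with each array left out, the 1 being without MIG replicate 2. For ΔOM-LZ over MIG (0) they were 2 with all probe sets and 0 to 4 with each array left out, the 4 also without MIG replicate 2. For CALM-AF10 over ΔOM-LZ (0) the paired fit with the replicate block called 1.

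Rescaling, an alternative chosen after seeing the data, left r of Hoxb2 with the stem and progenitor score at 0.91 under quantile normalization and under median centring. It took Hoxb1 with Hoxb7 from 0.72 to 0.29 and 0.53, and Hoxb9 with the array median from 0.64 to 0.38 and 0.39. In every setting the array median was that of the deposited values, before rescaling. Other relations moved less. Hoxb1 with the array median went from 0.77 to 0.73 and 0.65, and Hoxb7 with Hoxb9 from 0.84 to 0.74 and 0.76. Hoxb1 with Hoxb9 went from 0.78 to 0.66 and 0.66, and Hoxb2 with Hoxb3 from 0.68 to 0.645 and 0.71.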
